A study of Rattus norvegicus with 18 samples.

Results

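The genes described here carry signals from receptors at the cell surface to the second messengers cyclic AMP and diacylglycerol and to the kinases that these messengers control. They were taken by name: every probe set, other than the manufacturer's controls, whose single platform symbol begins with Gna, Gnb, Gng, Rgs, Adcy, Pde, Prka, Prkc, Plc, Pld or Pki. The rule gave 33 of 1263 probe sets, which stand for 17 of the 720 genes named by a single symbol: Gnao1, Gnas, Gnb1, Gnb2, Pde4a, Pde4b, Pde4c, Pde4d, Plcb1, Pld1, Pld2, Prkar2a, Prkar2b, Pkia, Prkca, Prkcb and Prkcz. No single-symbol probe set began with Gng, Rgs or Adcy, so G protein gamma subunits, Rgs proteins and adenylyl cyclases were not analysed here.

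The study asked how rat astrocytes respond over time to the beta-amyloid fragment that spans residues 25 to 35. Total RNA from 18 samples was measured on arrays with 1322 probe sets. In 12 samples the cells, named cortical type-I astrocytes, had been grown on the immobilized fragment, with 3 samples each at 12 hours, 1 day, 3 days and 5 days. The 6 control samples were grown on laminin and nitrocellulose with no peptide, for a time that the labels leave out. The source label of controls 1 and 2 names cerebral cortex, and that of the other 16 samples names type-I astrocytes. No strain, age or number of cultures is given, and the labels do not say that replicates were separate cultures, so the p-values reflect the spread among these samples alone, and that spread may be technical.

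Heterotrimeric G proteins consist of an alpha subunit, which binds GTP when a receptor is activated, and a beta-gamma pair, which is then released. Gs, encoded by Gnas, stimulates adenylyl cyclase to make cyclic AMP, which releases the catalytic subunits of protein kinase A from its regulatory subunits, while phosphodiesterases break cyclic AMP down. Phospholipase C beta, activated by Gq, makes inositol trisphosphate and diacylglycerol, and diacylglycerol together with calcium activates the conventional protein kinase C isoforms. In cultured astrocytes a rise in cyclic AMP is known for turning flat cells into process-bearing ones.

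Values are linear signals per probe set, deposited in a form already on 1 scale between arrays, and signals of different probe sets are not compared as levels. Signals at or under 11.3, the floor, count as the floor before log2 is taken. After a filter that kept probe sets above 44.9 on at least 3 arrays, 1027 probe sets were tested, 30 of the 33 described here among them and all 17 genes represented. After trimming, mean signals ran from 496.259 to 497.366 over the 18 arrays, and the number of arrays limits the precision. A difference was called where limma's Benjamini-Hochberg adjusted p over the 1027 probe sets was under 0.05.

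Clustered on tested probe sets outside these families, the arrays were split into 2 sets, a number that was set and not estimated. These sets cut across the exposure times. The smaller cluster held 7 arrays: controls 1 and 2, all 3 arrays of 12 hours, array 3 of 1 day and array 3 of 3 days. The larger held the other 11: controls 3 to 6, arrays 1 and 2 of 1 day and of 3 days, and all 3 arrays of 5 days. The median correlation of log2 signals was 0.956 for pairs of one group in one cluster, 0.811 for pairs of one group in different clusters and 0.916 for pairs of different groups in one cluster. The clusters were drawn from these same correlations, so the values describe the split and do not test it. Since 12 hours lies wholly in the smaller cluster and 5 days wholly in the larger, a difference between these times cannot be told apart from one between the clusters except through the other groups. Without controls 1 and 2 the remaining controls all lie in the larger cluster. A 12 hours difference from control in that fit therefore sets the smaller cluster against the larger. Where the clusters end a call, a value with the cluster as a block or from within 1 cluster stands beside it.

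Of 12 marker genes of the labelled cell type, astrocytes, 8 were measured, by 18 probe sets. Gfap, Aqp4, Aldh1l1 and Aldoc were not measured. Above the floor on every array were 17 of the 18, and Vim ranged from 8770.4 to 18831.2. Of the 18, 12 overlapped between the clusters. Another 5, for S100b, Mt3 and 3 of Slc1a3, were lower throughout the smaller cluster, with S100b (S53527mRNA_s_at) at 19.7 to 401.2 there and 528.6 to 1209 in the larger. Gja1 was higher throughout the smaller cluster, at 4269.5 to 11591.7 against 810.6 to 3116.5. Of 6 microglial genes only Itgam was measured, at 22.3 to 77 over all arrays. Of 8 oligodendrocyte probe sets 5 were above the floor on every array, for Cnp (229.9 to 817.8), Mag, Mbp and Mog, all 8 overlapped between the clusters, and Sox10 was at or under the floor on 17 of 18 arrays.

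Against control, 1 of the 30 tested probe sets was called at 12 hours, Pkia, which fell, where 1.66% of all 1027 were called and 0.876% lower. The count was 0 at 1 day, where 0.292% of all were called, and 0 at 3 days and at 5 days, where 0% of all were called. Between 12 hours and 5 days 7 were called, all higher at 5 days: 2 probe sets of Prkcb and 1 each of Prkcz, Pde4a, Prkar2b, Pkia and Gnao1. Over all probe sets 16.5% were called in that comparison, 8.96% higher and 7.5% lower, so 7 of 30 higher is a larger share than the background and 0 of 30 lower a smaller one, with no test of either. These 7 calls rest on few arrays. Leaving out any 1 array of 12 hours, or array 1 or 2 of 5 days, left 0 of the 30 called by limma, without array 3 of 5 days 1 was called, and without array 1 or array 2 of 1 day 4 were. Without array 3 of 1 day 11 were. The shares of all probe sets called in the fits with 1 array left out are not given here. With the array cluster as a block limma called 0 of 30 and 0% of all, with 4 of the 30 at an unadjusted p under 0.05 against 14.8% of all. Without controls 1 and 2, both in the smaller cluster, limma called 11 of 30, 10 higher and 1 lower, against 24% of all, 12.2% higher and 11.8% lower. An unadjusted p under 0.05 was reached by 15 of the 30 there, against 36.2% of all. Median centring in place of the deposited scaling changed the split over all probe sets from 92 higher and 77 lower to 70 higher and 100 lower.

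At an unadjusted limma p under 0.05 the counts were 8 of 30 at 12 hours, all lower, against 29.3% of all in either direction and 18.3% lower. They were 5 at 1 day against 11.7%, 2 at 3 days against 4.58% and 1 at 5 days against 9.15%. The median difference of the 30 was -0.05 at 12 hours (all probe sets -0.18), -0.10 at 1 day (-0.05), 0.05 at 3 days (0.02), 0.08 at 5 days (-0.14) and 0.16 for 5 days against 12 hours (0.01), all on the log2 scale. limma's F-test over the 5 groups called 0 of the 30 against 1.66% of all, and 11 had an unadjusted p under 0.05 against 25.1%. The share of the 30 at an unadjusted p was near the background at 12 hours, below it at 5 days and above it at 1 day and 3 days. At the last 3 times the distance rests on very few probe sets, with no test of it. Both U88324 probe sets of Gnb1 are among those at 1 day. At 12 hours without controls 1 and 2, limma called 12 of 30, 1 higher and 11 lower, against 31.3% of all, 13.1% higher and 18.1% lower. An unadjusted p under 0.05 was reached by 13 of the 30 there, against 44% of all. With the cluster as a block it called 0 of 30 at 12 hours, where 0.292% of all were called, 0.0974% higher and 0.195% lower, with 2 at an unadjusted p against 19.6%. Within the smaller cluster it called 0 of 30 and 0% of all, with 2 at an unadjusted p against 12.7%.

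**Figure D1:**
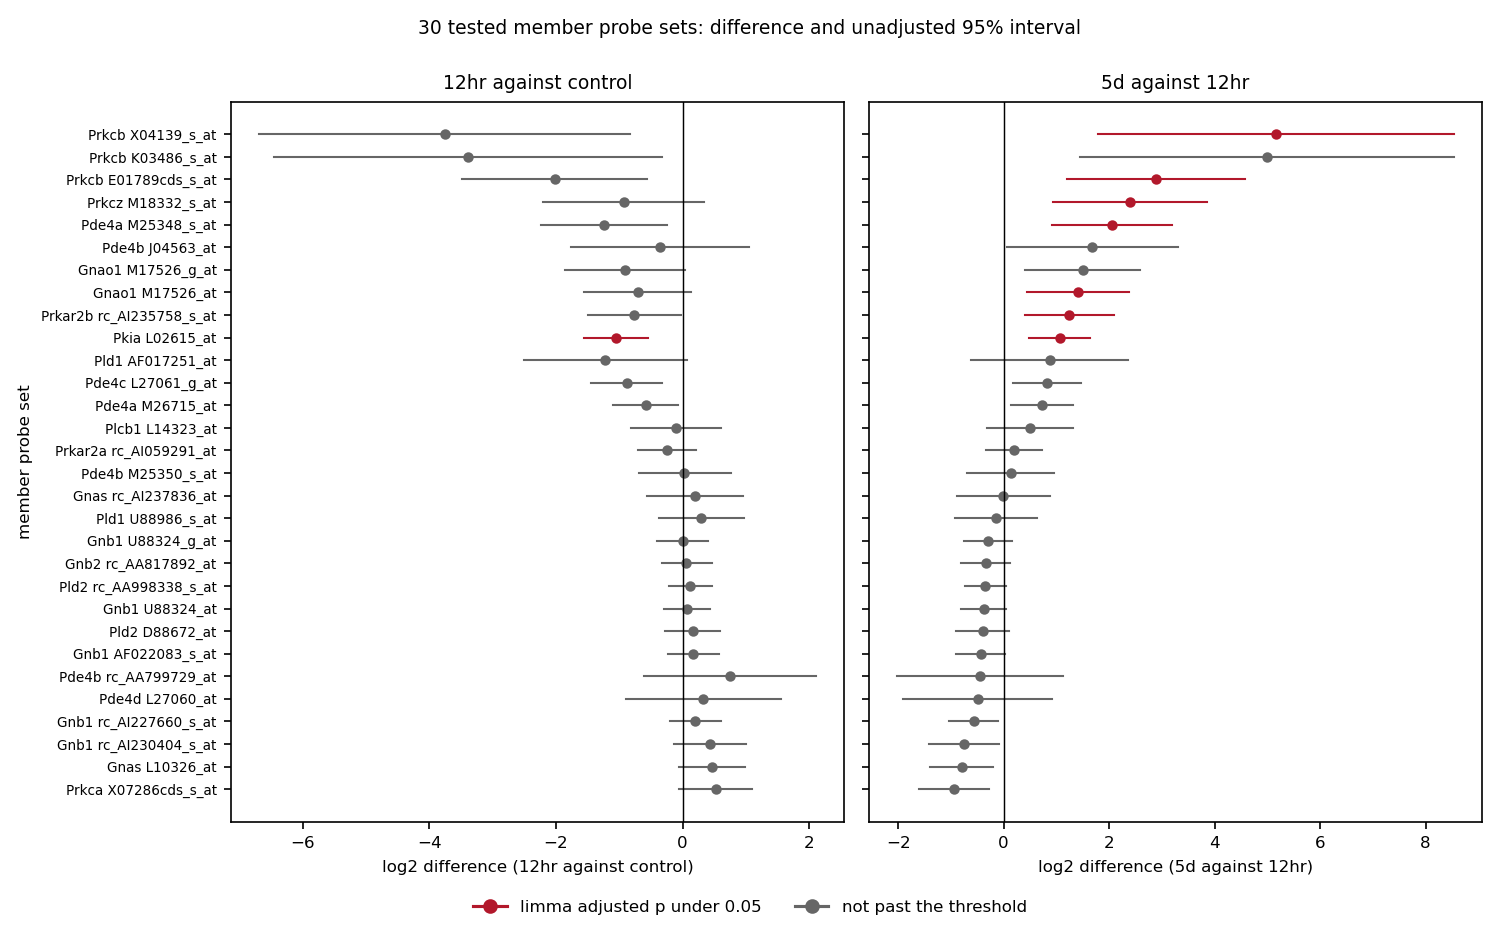
Log2 difference with its unadjusted 95% interval for each of the 30 tested probe sets, at 12 hours against control (left) and 5 days against 12 hours (right), ordered by the second; red marks a limma adjusted p under 0.05. Pkia is the 1 red point on the left, and the 7 red points on the right all lie above 0.

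Among the G protein alpha subunits, Gnao1 was higher at 5 days than at 12 hours and Gnas was not called in any comparison with all 18 arrays and no block. Gnao1 encodes the alpha subunit of Go, the most abundant G protein of brain, which releases beta-gamma and inhibits calcium channels in neurons. Its probe set M17526_at read 94.8, 70.8 and 67.7 at 12 hours and 210.3, 210.6 and 191.6 at 5 days. These groups do not overlap. The difference was 1.41 on the log2 scale (SE 0.46, 2.65-fold, limma adjusted p = 0.0469), with 3 of 3 arrays at 5 days above all arrays at 12 hours.

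In the controls the same Gnao1 probe set had a lowest value of 69.8, a median of 123.35 and a highest of 251.7. Controls 1, 2 and 5, at 69.8, 76.4 and 92.7, were in the range of the 12 hours arrays, and the others lay between 154 and 251.7. Neither 12 hours (-0.70, SE 0.40, limma adjusted p = 0.235) nor 5 days (0.70, SE 0.40, 0.539) was called against control. Without controls 1 and 2 the 12 hours value was -1.09 (limma adjusted p = 0.0342), and with the cluster as a block -0.03 (0.949).

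The second Gnao1 probe set, M17526_g_at, read 84.7, 128.9 and 181.9 at 12 hours, 307.2, 264.2 and 112.6 at 1 day, 537.6, 516.5 and 185.1 at 3 days, and 419.2, 364.9 and 295.1 at 5 days. Every array of the smaller cluster, up to 185.1, lay below every array of the larger, from 230 up, and at 1 day and 3 days array 3 was the low one. For 5 days against 12 hours it gave 1.5 (SE 0.51, limma adjusted p = 0.0546), past the threshold only in alternatives such as the fit without controls 1 and 2 (0.0317). With the cluster as a block the 5 days against 12 hours values were 0.40 (0.661) for M17526_at and 0.26 (0.782) for M17526_g_at. At 3 days M17526_g_at differed from control by 0.65 (SE 0.44, limma adjusted p = 0.999).

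RefSeq's promoter table for the GRCr8 assembly has 1 window for Gnao1, and it is shown because it was the only one of 23 windows for these genes to hold the full cyclic AMP response element, TGACGTCA, the site of CREB. The 250 bases before the start are at chr19:11198438-11198687 on the minus strand, written in the direction of the gene:
Gnao1: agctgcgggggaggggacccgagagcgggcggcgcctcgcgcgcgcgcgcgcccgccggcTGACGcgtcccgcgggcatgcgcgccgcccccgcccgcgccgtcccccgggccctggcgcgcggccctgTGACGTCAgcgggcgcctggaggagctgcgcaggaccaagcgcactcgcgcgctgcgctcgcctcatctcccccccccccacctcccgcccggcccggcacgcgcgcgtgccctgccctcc
Capitals mark TGACGTCA and its short form TGACG, searched on both strands (CGTCA), which overlaps the full element. The short form begins 190, 121 and 118 bases before the start, the last pair within the full element. Of 33469 windows of this length in the table, 1.59% hold the full element. A match describes these letters only and shows no binding.

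Gnas encodes Gs alpha, the activator of adenylyl cyclase. Its probe set rc_AI237836_at had control values from 2810.1 through a median of 8843.7 to 11639.8, and exposed values from 6097.5 to 13192.8. Control 2 alone lay below all 17 other arrays. Differences from control were 0.20 (SE 0.36) at 12 hours, -0.02 at 1 day, 0.42 at 3 days and 0.19 at 5 days.

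The other Gnas probe set, L10326_at, read 152.5, 198 and 160.4 at 12 hours and 94, 108.3 and 91.6 at 5 days, which do not overlap. In the controls it ranged from 76.6 through a median of 127.1 to 173.9, and both exposed groups overlap that range. The value for 5 days against 12 hours was -0.79 (SE 0.28, interval -1.39 to -0.20, limma adjusted p = 0.0628). With the replicate number as a block it passed (limma adjusted p = 0.0426), and with the cluster as a block it did not (-0.80, 0.319).

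Gnb1 and Gnb2 encode beta subunits, which pair with gamma subunits and carry signals to ion channels and phospholipases. None of the 6 probe sets was called in any comparison. At 1 day all 6 differences were below 0, from -0.47 to -0.04 (median -0.36), and at 5 days all 6 were again below 0, from -0.36 to -0.26 (median -0.30). At 12 hours they were 0.00 to 0.44, none below 0. For 5 days against 12 hours they ran from -0.75 to -0.30, with a smallest limma adjusted p of 0.0877. The 5 probe sets of Gnb1 measure 1 transcript and are not independent.

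The Gnb1 probe set U88324_at read 1428.9, 1375.7 and 1746.4 at 1 day, against controls from 1726 through a median of 2058.7 to 2513.1. Arrays 1 and 2 of 1 day were below every control and array 3 was inside their range. The difference was -0.47 (SE 0.17, limma adjusted p = 0.364). At 5 days the same probe set read 2198.2, 1495.1 and 1465.1, with 2 of 3 arrays below the controls and a difference of -0.31 (SE 0.17, limma adjusted p = 0.539).

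Its companion U88324_g_at gave -0.44 (SE 0.19, limma adjusted p = 0.397) at 1 day and -0.29 (0.564) at 5 days. The Gnb1 probe set rc_AI227660_s_at gave -0.38 (0.478) and -0.36 (SE 0.19, 0.52). The remaining Gnb1 probe sets AF022083_s_at and rc_AI230404_s_at gave -0.16 and -0.33 at 1 day and -0.26 and -0.31 at 5 days. All 5 lay on the same side of 0 at both times, and every one of these groups overlapped the controls.

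Gnb2 was one of 5 tested probe sets here whose ranges do not overlap between the clusters, where 14.9% of all probe sets do not overlap. It was the only one higher in the smaller cluster, as 7.79% of all were, at 5771.3 to 7454.1 against 4169.7 to 5514.8. At 12 hours it read 5828.6, 5902.8 and 5771.3, at 1 day 4984.5, 5219.3 and 6131.2, at 3 days 4297.7, 4169.7 and 7454.1, and at 5 days 5277.1, 4339.6 and 4280.7. The high array of 1 day and of 3 days was array 3 each time. Against controls at 5109.4 to 6592 the differences were between -0.28 and 0.06.

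All 8 phosphodiesterase probe sets belong to the Pde4 family, enzymes that break down cyclic AMP and not cyclic GMP and are the targets of rolipram. Of the 7 tested, 1 was called: Pde4a M25348_s_at, higher at 5 days than at 12 hours. That probe set read 50.9, 22.8 and 54.2 at 12 hours, 95.6, 67.3 and 25.5 at 1 day, 123.6, 112.4 and 98.1 at 3 days, and 164.1, 164.7 and 167 at 5 days. The 5 days arrays were all above the 12 hours arrays, and array 3 of 1 day, at 25.5, was as low as those of 12 hours. The difference between 5 days and 12 hours was 2.06 (SE 0.54, 4.16-fold, limma adjusted p = 0.0314), and 0.88 (0.389) with the cluster as a block.

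Pde4a control values for M25348_s_at ran from 45.8 through a median of 99.5 to 171.3, with controls 1 and 2 the lowest at 45.8 and 53.3. At 12 hours the difference from control was -1.24 (SE 0.47, limma adjusted p = 0.114), and -1.71 (0.00948) without controls 1 and 2. Within the smaller cluster it was -0.31 (0.71). The other Pde4a probe set, M26715_at, read 216.2, 208.1 and 203.7 at 12 hours against controls of 245.9 to 402.2 (median 313.5). These do not overlap, as for 3 of the 30 probe sets at 12 hours, Pkia and Prkcz being the others, where 15.2% of all probe sets do not overlap and 9.83% do so lower. The difference was -0.58 (SE 0.24, limma adjusted p = 0.137). M26715_at at 5 days against 12 hours gave 0.73 (SE 0.28, limma adjusted p = 0.0831), with no overlap between 203.7 to 216.2 and 320.5 to 379.6.

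Pde4a has 4 windows in the promoter table, from alternative starts, and 2 hold the short element; they are shown as the only other windows of a called gene with it. They are the 250 bases before the start at chr8:27966737-27966986 and at chr8:27999163-27999412, both on the plus strand of GRCr8:
Pde4a, early start: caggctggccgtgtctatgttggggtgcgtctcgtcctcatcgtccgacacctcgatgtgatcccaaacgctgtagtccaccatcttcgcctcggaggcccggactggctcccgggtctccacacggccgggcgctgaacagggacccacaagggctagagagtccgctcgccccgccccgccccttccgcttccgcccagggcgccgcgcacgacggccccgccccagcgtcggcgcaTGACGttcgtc
Pde4a, later start: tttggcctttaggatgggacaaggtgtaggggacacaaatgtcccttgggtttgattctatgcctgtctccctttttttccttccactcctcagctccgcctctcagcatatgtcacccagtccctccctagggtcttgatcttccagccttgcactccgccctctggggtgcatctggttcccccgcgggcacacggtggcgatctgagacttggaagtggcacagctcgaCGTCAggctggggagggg
Capitals mark TGACG in the first and its reverse complement CGTCA in the second, with the first base 11 and 18 bases before the start. The short element was in 7 of the 23 windows for these genes, and in 18.2% of all windows in the table. For Pkia and Prkcb no window was used here.

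Pde4c read 191.2, 214.8 and 183.8 at 12 hours, 189.4, 284.8 and 283 at 1 day, 380.8, 258 and 209.7 at 3 days, and 335, 363.9 and 341.8 at 5 days. Its controls ran from 207.4 through a median of 406.1 to 470.3, control 1 being the lowest and the only one inside the 12 hours range. At 12 hours the difference was -0.88 (SE 0.26, 1.84-fold lower, limma adjusted p = 0.0881), the second smallest p among these genes. Without controls 1 and 2 it was -1.15 (limma adjusted p = 0.00211). With the cluster as a block it was -0.57 (0.236), and within the smaller cluster -0.35 (0.469). Within the larger cluster the 1 day difference was -0.91 (limma adjusted p = 0.0302), from 2 arrays against 4 controls. The 3 days difference with all arrays was -0.40 (SE 0.26, limma adjusted p = 0.999).

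Pde4b was not called at any time, but its arrays 1 and 2 of 1 day stood high. Probe set M25350_s_at read 125.9, 133.8 and 58.9 at 1 day and 74.8, 95.9 and 95.6 at 3 days, against controls from 23.1 through a median of 56.9 to 71.4. The 3 days arrays were all above the controls, 1 of 30 probe sets without overlap where 1.56% of all do not overlap and 0.584% lie higher, while at 1 day array 3 was inside the control range. Differences were 0.95 (SE 0.34, limma adjusted p = 0.337) at 1 day and 0.78 (SE 0.34, 0.923) at 3 days.

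The Pde4b probe set J04563_at read 90, 116.3 and 10.8 at 1 day and 75.8, 25.7 and 79.2 at 5 days, with controls from 9.5 through a median of 20.2 to 65.9. Array 3 of 1 day was under the floor and the other 2 were above every control. The 1 day difference was 1.20 (SE 0.66, limma adjusted p = 0.533), and 2.26 (0.0447) without array 3 of 1 day and array 3 of 3 days. At 5 days it was 1.33 (SE 0.66, limma adjusted p = 0.52).

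The remaining Pde4b probe set, rc_AA799729_at, did not follow those: at 1 day it read 24.5, 102.7 and 91.6, with a difference of 0.53 (SE 0.64), and at 3 days 10.4, 29.5 and 24.1, with -1.08 (SE 0.64, limma adjusted p = 0.999). Array 1, high with the first pair of probe sets at 1 day, was the low one here. The probe sets of Pde4b therefore disagree. Pde4d L27060_at stayed between 28.2 and 105.6 on all arrays but control 2, at 10.1, and L27059_s_at did not pass the filter on low values, at 2.2 to 40.3.

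**Figure D2:**
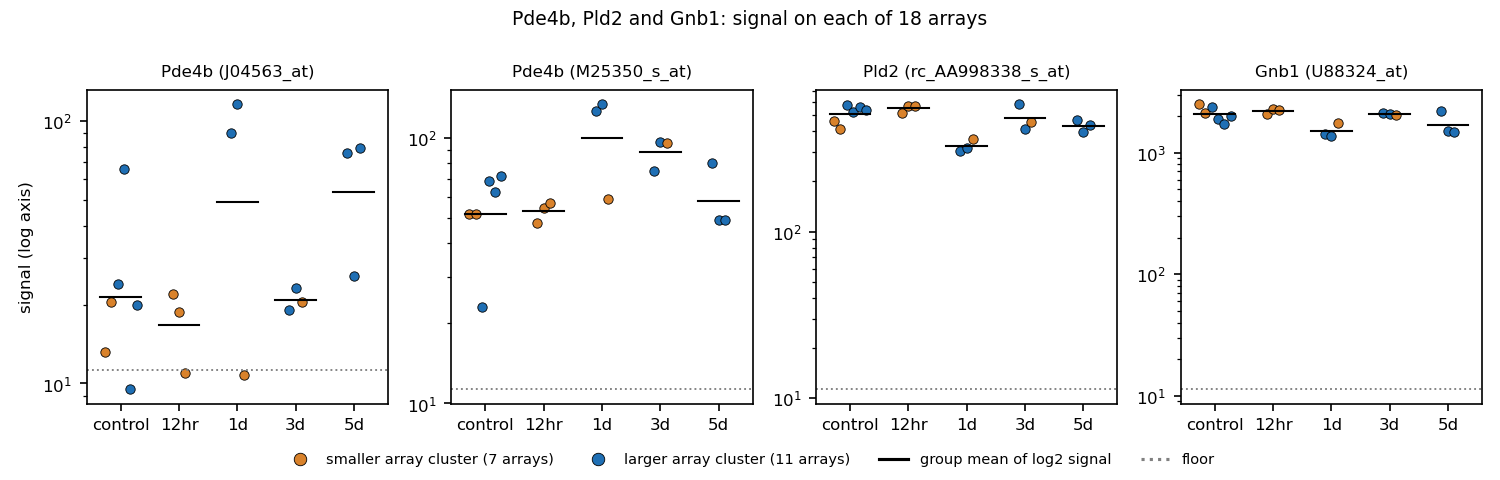
Signal (log axis) on each of 18 arrays for 2 probe sets of Pde4b and 1 each of Pld2 and Gnb1, by group; points are arrays coloured by cluster, bars are means of log2 signal and the dotted line is the floor. The 1 day arrays of Pld2 all lie below the controls, while Pde4b J04563_at at 1 day splits into 90 and 116.3 against 10.8.

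Pkia was the 1 gene called against control. It encodes the alpha form of the protein kinase A inhibitor, a small protein that occupies the active site of the free catalytic subunit and carries it out of the nucleus. Its probe set read 103.6, 112.9 and 91.4 at 12 hours, against controls from 144.6 through a median of 213.25 to 312.8. Every 12 hours array was below every control, controls 1 and 2 being the lowest of these at 144.6 and 176.5. The gene fell at 12 hours by 1.05 on the log2 scale (SE 0.24, 2.07-fold lower, limma adjusted p = 0.0439), when the median of all probe sets was -0.18.

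That call lies near the threshold. Under quantile normalization, median centring or cyclic loess, which set the median of all probe sets to between -0.04 and -0.01, the Pkia difference was -0.86, -0.87 and -0.89 (limma adjusted p = 0.0851, 0.056 and 0.0773). Within the smaller cluster, against controls 1 and 2 alone, it was -0.64 (limma adjusted p = 0.347). Without them it was -1.25 (0.00188). Leaving out 1 array at a time gave -1.16 to -0.93 with limma adjusted p from 0.006 to 0.163, and the call held in 5 of 18 such fits. It was lost without any 1 of controls 3 to 6, of the 12 hours arrays, of arrays 1 and 2 of 1 day and of 3 days, or of arrays 2 and 3 of 5 days.

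At the later times Pkia was back in the control range. It read 197.7, 227.7 and 176.6 at 1 day, 245.2, 206.4 and 177.3 at 3 days, and 294.5, 171.3 and 193.6 at 5 days, all between the lowest and the highest control. The differences from control were -0.08, -0.02 and 0.02 (SE 0.24 each). From 12 hours to 5 days it rose by 1.06 (SE 0.27, 2.09-fold, limma adjusted p = 0.0293), and by 0.61 (0.327) in the fit with the cluster block, which does not pass.

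Prkar2a and Prkar2b encode the type II regulatory subunits, which hold the catalytic subunits inactive and bind anchoring proteins; the beta form prevails in brain. Prkar2b read 38.7, 47 and 27.9 at 12 hours, 62.6, 57.9 and 62.1 at 1 day, 43.6, 74.2 and 118 at 3 days, and 92.1, 61.5 and 119.1 at 5 days, against controls of 40.4 to 100.3 (median 63.95). All 3 arrays of 5 days were above the 12 hours arrays, while both groups overlap the controls. The 5 days against 12 hours difference was 1.24 (SE 0.40, 2.37-fold, limma adjusted p = 0.0459), and 1.11 (SE 0.50, 0.324) with the cluster as a block. Against control at 12 hours it was -0.76 (SE 0.34, 0.154).

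Prkar2a read 320.8, 317.6 and 338.4 at 12 hours, with controls from 266 through a median of 424.55 to 529.4. Controls 1 and 2, at 284.1 and 266, were below all 3 arrays of 12 hours, and controls 3 to 6, from 407.2, were above them. The difference was -0.25 (SE 0.22, limma adjusted p = 0.423) with all controls and -0.50 (0.0347) without controls 1 and 2. Within the smaller cluster it had the other sign, at 0.24 (0.427). At the other times the differences were -0.03, 0.09 and -0.06.

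**Figure D3:**
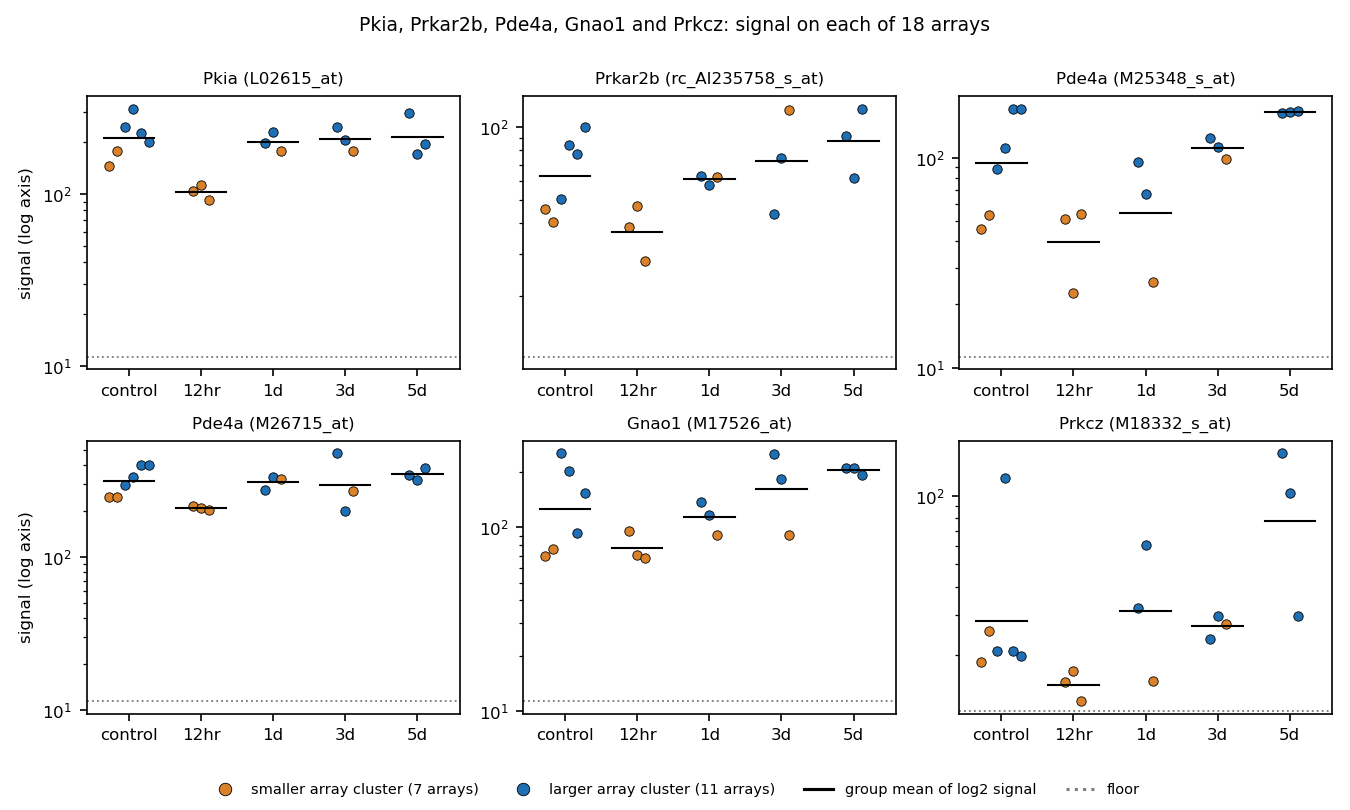
Signal (log axis) on each of 18 arrays for Pkia, Prkar2b, 2 probe sets of Pde4a, Gnao1 and Prkcz, by group; points are arrays coloured by cluster, bars are means of log2 signal and the dotted line is the floor at 11.3. The 12 hours arrays are the lowest group in each panel, and for Pkia, Pde4a M26715_at and Prkcz they lie below all controls.

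Plcb1 encodes a phospholipase C that Gq activates. Its tested probe set L14323_at read 131.3, 140.6 and 116.9 at 12 hours, 257.9, 263.1 and 92.7 at 1 day, 136.4, 120.4 and 131.1 at 3 days, and 242.2, 173.3 and 145.3 at 5 days. Arrays 1 and 2 of 1 day were above the highest control, 239.1, and array 3 was below the lowest, 93.4. The 1 day difference was 0.41 (SE 0.33, limma adjusted p = 0.728). The other probe set, M20636_s_at, did not pass the filter, at 4 to 56.3.

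Prkcb showed the widest range of signal, as a ratio, of these genes. It encodes protein kinase C beta, a conventional isoform that calcium and diacylglycerol activate. Probe set X04139_s_at read 33.7 and 46.2 in controls 1 and 2 and 591.3, 624.6, 752 and 670.5 in controls 3 to 6. It read 17.5, 5.5 and 34.6 at 12 hours, 240.7, 221.6 and 11.9 at 1 day, 575.4, 669.3 and 10.6 at 3 days, and 809.2, 589.1 and 652.4 at 5 days. The 7 arrays of the smaller cluster, 5.5 to 46.2, lie apart from the 11 of the larger, 221.6 to 809.2.

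Probe set K03486_s_at of Prkcb was under the floor on all 7 arrays of the smaller cluster, at 4.4 to 9.3, and at 205.3 to 422.5 on the other 11. The gap from the floor to the lowest array of the larger cluster was 4.18 on the log2 scale (18.2-fold), rank 1 among the 1027 tested probe sets. For X04139_s_at the gap was 2.26 (rank 16) and for E01789cds_s_at, at 31.3 to 82.4 against 153.2 to 402.9, it was 0.89 (rank 42). These are descriptions of clusters drawn from the same arrays and carry no test. With Gnao1 M17526_g_at, at a gap of 0.31, they are the 4 probe sets lower throughout the smaller cluster, where 7.11% of all tested probe sets were.

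**Figure D4:**
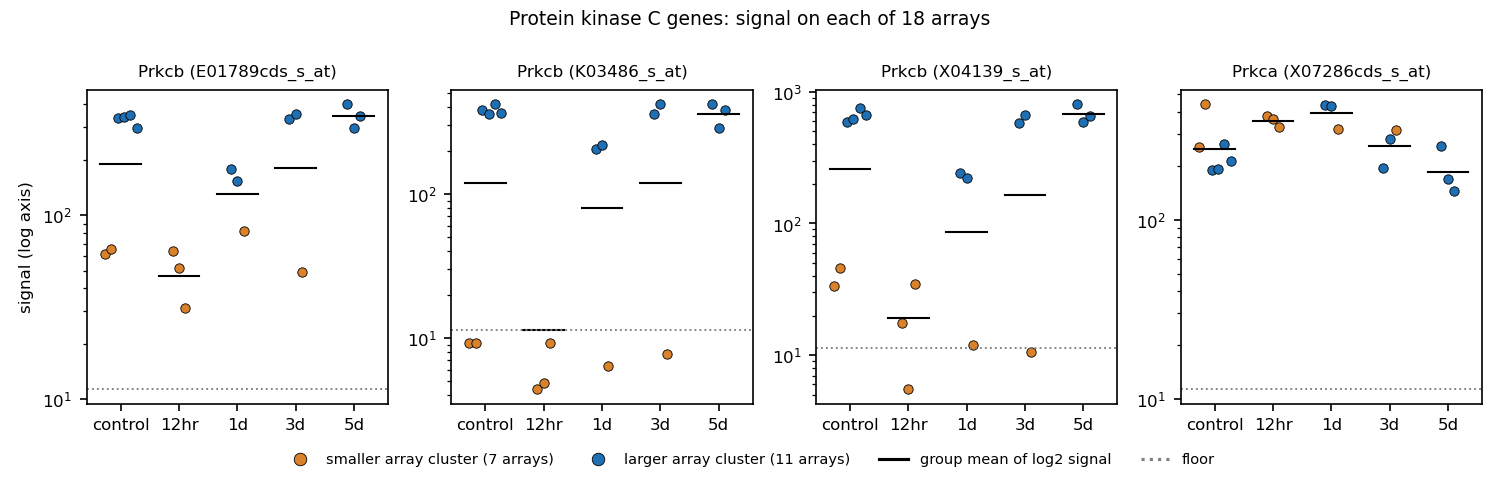
Signal (log axis) on each of 18 arrays for 3 probe sets of Prkcb and 1 of Prkca, by group; points are arrays coloured by cluster, bars are means of log2 signal after the floor of 11.3 was applied, and the dotted line is the floor. In all 3 Prkcb panels the smaller cluster lies below the larger in each group that holds both, and at 1 day the larger-cluster arrays, 240.7 and 221.6 for X04139_s_at, lie below controls 3 to 6.

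At 5 days against 12 hours X04139_s_at gave 5.16 (SE 1.59, 35.7-fold, limma adjusted p = 0.0446) and E01789cds_s_at 2.89 (SE 0.79, 7.4-fold, 0.0372). K03486_s_at, at or under the floor on every array of 12 hours, was at least 31.9-fold higher at 5 days (limma adjusted p = 0.0521). With the cluster as a block the 3 values were 0.61 (0.597), 0.75 (0.405) and 0.12 (0.867). Against control no Prkcb probe set was called at 12 hours, with -3.76 (SE 1.38, limma adjusted p = 0.113), -2.02 (SE 0.69, 0.109) and -3.39 (SE 1.44, 0.145). Without controls 1 and 2 these were -5.11 (0.00978), -2.82 (0.00269) and -5.08 (0.00539), and within the smaller cluster -1.06 (0.429), -0.44 (0.543) and 0.00.

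At 1 day, within the larger cluster, all 3 Prkcb probe sets fell, from 2 exposed arrays against 4 controls. The differences were -1.51 (SE 0.19, limma adjusted p = 0.00112) for X04139_s_at, -1.0 (SE 0.18, 0.00687) for E01789cds_s_at and -0.86 (SE 0.19, 0.0191) for K03486_s_at. Both exposed arrays were below all 4 controls for each. In that fit 6 of the 30 probe sets were called, 5 lower and 1 higher, against 12% of all, 6.52% lower and 5.45% higher, and 12 had an unadjusted p under 0.05 against 25.3%. With all arrays and the cluster as a block limma called 2 of 30 at 1 day, both lower, against 2.92% of all, 1.17% higher and 1.75% lower. An unadjusted p under 0.05 was reached by 9 of the 30 there, against 18.9% of all. With all arrays and the cluster as a block X04139_s_at gave -1.58 (0.0181) and was called, while E01789cds_s_at gave -0.54 (0.306) and K03486_s_at -0.57 (0.109), and with no block the 1 day values were -1.58 (SE 1.38, 0.744), -0.54 and -0.57. At 3 days and 5 days within the larger cluster the 3 probe sets were between -0.09 and 0.07. limma called 0 of the 30 at either time within it, where 0.584% and 0% of all were, and 1 and 0 had an unadjusted p under 0.05 against 11.5% and 9.25%.

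Some markers of several cell types lay apart between the clusters, as Prkcb did, and most did not. For neurons 8 of 11 marker genes were measured by 17 probe sets, with a summed signal of 3615.8 to 3793.4 at 12 hours, 5383.8 to 5484.7 at 5 days and 3718.2 to 6595.1 in the controls. Of the 17, 3 were lower throughout the smaller cluster, all of Map2, such as U30938_at at 31.1 to 74 against 241.1 to 631.9, and the other 14 overlapped. For 5 days against 12 hours, 3 of the 15 tested neuronal probe sets were called higher and 1 lower, where 8.96% and 7.5% of all were. The lower one was Nefh rc_AA818677_at (-2.97, SE 0.83, limma adjusted p = 0.0394), at or under the floor on 4 of 18 arrays. Above the floor on every array were 11 of the 17, Eno2 (2122.9 to 3833.6) and Syn1 (189.7 to 406.3) among them. The 18 astrocyte probe sets summed to 54164.9 to 55589.2 at 12 hours, 56734.5 to 63106.9 at 5 days and 30669.8 to 53562.7 in the controls. The 7 probe sets of Igf2 and Pdgfrb, 2 of 9 fibroblast, meningeal and vascular genes, summed to 4290.3 to 4445 at 12 hours, 1055.5 to 1251 at 5 days and 1246.9 to 9775.5 in the controls. Of these 7, 2 were higher throughout the smaller cluster, both of Igf2, and the other 5 overlapped. Igf2 X17012mRNA_s_at was at 3282.5 to 8743.8 there against 211.2 to 645.3 in the larger, and E00988mRNA_s_at at 128.3 to 589.3 against 12.3 to 31.4. The part of cell composition in the Prkcb values was not tested, and fewer cells of a type and less RNA per cell cannot be told apart in such samples.

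Prkca, the alpha isoform and also activated by calcium and diacylglycerol, did not follow Prkcb. It read 377.6, 363.9 and 327.4 at 12 hours, 436.6, 433.5 and 320.6 at 1 day, 194.1, 282.1 and 316.8 at 3 days, and 258.5, 168.8 and 144.7 at 5 days, against controls of 188.3 to 443.2 (median 233.2). Every group overlaps the controls, of which control 2 alone was above 265.6. At 1 day the difference was 0.67 (SE 0.27, 1.59-fold, limma adjusted p = 0.383) and within the larger cluster 1.04 (SE 0.27, 0.0387). At 12 hours it was 0.53 (SE 0.27, 0.206), and 0.75 (0.0313) without controls 1 and 2. Within the smaller cluster the 12 hours value was 0.08 (0.878). Prkca at 5 days against 12 hours gave -0.94 (SE 0.31, limma adjusted p = 0.0512), with no overlap of the groups.

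Prkcz encodes an atypical isoform that needs neither calcium nor diacylglycerol. Probe set M18332_s_at read 15.2, 17 and 12.5 at 12 hours, 32.3, 60.9 and 15.4 at 1 day, 23.6, 29.6 and 27.4 at 3 days, and 153.9, 103 and 29.6 at 5 days. Its controls were 18.7 to 25.4 apart from control 4, at 120.4, so the 12 hours arrays were below all controls and 2 of 3 arrays of 5 days stood high. The difference of 5 days from 12 hours was 2.39 (SE 0.69, 5.26-fold, limma adjusted p = 0.0409), and 1.75 (SE 0.83, 0.337) with the cluster as a block. Against control it was -0.93 (SE 0.60, 0.298) at 12 hours and 1.47 (SE 0.60, 0.469) at 5 days. Probe set J04532_at, near the floor throughout at 3 to 13.8, did not pass the filter.

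Phospholipase D makes phosphatidic acid, and both of its isoforms here are known to respond to protein kinase C and small GTPases. Pld2 rc_AA998338_s_at read 305.6, 316.1 and 359.2 at 1 day, against controls from 414.9 through a median of 530.7 to 573. It was the 1 of 30 probe sets whose 1 day arrays did not overlap the controls, where 1.95% of all did not and 0.974% lay lower. The difference was -0.64 (SE 0.16, 1.56-fold lower, limma adjusted p = 0.142), lower in 3 of 3 arrays. With the cluster as a block it was -0.64 (0.0292), within the larger cluster -0.82 (0.0169) and without controls 1 and 2 -0.75 (0.0169).

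Pld2 was inside or near its control range at the other times, at 515.3 to 570.1 at 12 hours, 413.5 to 584.8 at 3 days and 398.5 to 467.3 at 5 days. Its other probe set, D88672_at, did not show the same at 1 day: 99.6, 123 and 129.5 against controls of 94.7 to 154.6, a difference of -0.13 (SE 0.21). At 3 days D88672_at gave -0.28 (SE 0.21, limma adjusted p = 0.999).

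Pld1 U88986_s_at read 201.5, 123.7 and 230.5 at 3 days against controls of 77.3 to 170 (median 102.35). Arrays 1 and 3 were above every control and array 2 inside their range. The difference was 0.74 (SE 0.32, limma adjusted p = 0.877). The other Pld1 probe set, AF017251_at, gave 0.80 (SE 0.60) from values of 38.9, 38.7 and 85.2, with controls of 8.2 to 75.6.

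In the comparison of 5 days with 12 hours 20 of the 30 probe sets did not overlap, 13 higher and 7 lower, where 53.7% of all did not, 26.7% higher and 27.1% lower. The 13 higher were both probe sets of Gnao1 and of Pde4a, all 3 of Prkcb, and Pde4b J04563_at, Pde4c, Plcb1 L14323_at, Prkar2b, Pkia and Prkcz M18332_s_at. The 7 lower were Gnas L10326_at, Gnb1 AF022083_s_at and rc_AI227660_s_at, Gnb2, both probe sets of Pld2, and Prkca. At 5 days against control 0 of 30 did not overlap, where 5.36% of all did not.

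Other genes of these pathways were sparse on the array. Of 91 listed regulators and effectors, among them receptor kinases, arrestins, CREB factors, cyclic nucleotide-gated channels, inositol trisphosphate receptors and protein kinase C substrates, 19 were measured, and 25 of their 34 probe sets were tested. limma called 0 of the 25 against control at each of the 4 times, with 4, 2, 1 and 2 at an unadjusted p under 0.05 at 12 hours, 1 day, 3 days and 5 days, where the shares of all probe sets were 29.3%, 11.7%, 4.58% and 9.15%. For 5 days against 12 hours 0 were higher and 1 lower, against 8.96% and 7.5% of all: Grk2, a kinase that desensitizes activated receptors, at -1.29 (SE 0.40, limma adjusted p = 0.0446). With the cluster as a block it was -0.50 (0.561), and without any 1 array of 12 hours or of 5 days the call was lost (limma adjusted p from 0.0855 to 0.118).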

How the data were processed

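The deposited values are linear intensities, 1 for each probe set on each array. Their means, trimmed by 2% at both ends, were nearly equal on all 18, so they were taken as already scaled between arrays. The software, its version, the scaling target and a genome build were not given in the sources used here. No detection calls were used. The 59 manufacturer's control probe sets were left out. The 10th percentile of the other 1263 (11.3) served as a floor for lower values before log2, with no further scaling. Probe sets above the 30th percentile (44.9) on at least 3 arrays were tested, 1027 in all, with lmFit and eBayes in limma 3.58.1 on R 4.3.3, 1 model of 18 arrays and 5 groups with 13 residual degrees of freedom (median residual SD 0.49). All tests are two-sided, with Benjamini-Hochberg adjustment over every tested probe set in a comparison. Folds are differences of mean log2 values. A fold against a group wholly at the floor is a bound. Fold changes of dim probe sets are understated by the floor. The procedure was tested on simulated data, drawn independently for each array and probe set with no array clusters. That test therefore says nothing of the clusters. For 5 days against 12 hours it called 36% of simulated differences of 1 on the log2 scale and 96% of those of 3. Where no difference was simulated it called 0.484%.

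Symbols came from the platform annotation, in which 1137 probe sets have a single symbol, and all 33 symbols used here equal RefSeq's. The genes, lists and tests were chosen with earlier results of these data known. By the rule for named genes, every called probe set is described with its statistics. Where a comparison had none, the 3 smallest p-values in each direction are given, and in each family the probe set with the highest mean and the one with the smallest F-test p. Other values, including those from alternative fits, were chosen after they were seen.

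Average linkage on 1 minus Pearson's r gave the array clusters, over tested probe sets outside the described families. The alternatives were 3 other scalings, log2 with an offset of 50 and no floor, no filter, eBayes with trend and robust options, the fit without controls 1 and 2, the replicate number or the cluster as a block, fits within each cluster, and each array left out. A fit without array 3 of 1 day and array 3 of 3 days was added after seeing the data. No pair of arrays shared more than 0.681% of values. Whether replicate numbers pair the samples was not settled. Of 10 pairs of groups, only 1 day and 3 days had all 3 same-number correlations of deviations over 0.1 (0.390, 0.429 and 0.683). In both of those groups array 3 alone lies in the smaller cluster. Such correlations also carry the array clusters, so they cannot exclude pairing.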

Additional observations from a re-analysis of the deposited data

Results flagged for a closer look

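In the controls, 5 of 33 probe sets had 1 array far from the other 5 by Dixon's test, which chance gives in about 1 of 20 groups. The share of all probe sets with such an array was not counted, so the number is not read as a trait of these genes. Control 2 stood apart for Gnas rc_AI237836_at, at 2810.1 against 8510 to 11639.8, for Pde4d L27060_at, at 10.1 against 49.7 to 95.3, and for Prkcz J04532_at, at 13.8 against 4.3 to 8.5. Control 3 stood apart for Pde4b M25350_s_at, at 23.1 against 51.4 to 71.4, and control 4 for Prkcz M18332_s_at, at 120.4 against 18.7 to 25.4. For J04532_at the other 5 controls were under the floor of 11.3 and counted as equal to it. That flag therefore comes from the floor and not from the spread of the printed signals.

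Some signals differed between 5 days and 12 hours, by limma's test of the difference itself, each higher at 5 days. They were Prkcb X04139_s_at (5.16 on the log2 scale) and E01789cds_s_at (2.89), Prkcz M18332_s_at (2.39), Pde4a M25348_s_at (2.06), Gnao1 M17526_at (1.41), Prkar2b (1.24) and Pkia (1.06). No time is given for the controls, so time in culture and peptide exposure cannot be told apart in this comparison. The arrays of these times lie wholly in different clusters.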

How the results depend on the processing

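No called difference changed sign under any alternative run. The count at 12 hours against control, 1 as reported, was 0 with quantile normalization, median centring, cyclic loess, the offset of 50, the replicate block, the cluster block and within the smaller cluster. It was 12 (1 higher, 11 lower) without controls 1 and 2, where 31.3% of all probe sets were called, and 2 without array 3 of 1 day and array 3 of 3 days. At 1 day, 0 as reported, it was 3 without controls 1 and 2, and 1 without array 3 of 1 day and array 3 of 3 days. With the cluster block it was 2, against 2.92% of all, and within the larger cluster 6, against 12% of all. At 5 days, 0 as reported, it was 1 (Prkcz M18332_s_at) with the replicate block. Controls 4 to 6 share their replicate numbers with no other array, so that block takes them out of every difference from control. For Prkcz M18332_s_at this leaves out control 4, at 120.4. For 5 days against 12 hours, 7 as reported, the count was 3 with no filter. With quantile normalization it was 4, where 43 of all probe sets were called higher and 49 lower. Without controls 1 and 2 it was 11, against 24% of all, and with the cluster block 0, against 0% of all. Without array 3 of 1 day and array 3 of 3 days it was 11. The replicate block gave 6 there: Gnas L10326_at was gained, lower (0.0426), and Gnao1 M17526_at (0.0758) and Prkcb X04139_s_at (0.0625) were lost. The F-test count, 0 as reported, was 8 without controls 1 and 2 and 1 without those 2 arrays. With 1 array left out at a time the counts ranged from 0 to 6 at 12 hours (6 without control 1), 0 to 1 at 1 day (1 without array 3 of 1 day), 0 to 0 at 3 days and at 5 days, 0 to 11 for 5 days against 12 hours and 0 to 3 for the F-test (3 without control 1). The trend and robust options changed none of these counts by over 1.5 times. Counts printed here with no share of all probe sets beside them describe the fit and are not results about these genes. The causes were not tested. The replicate numbers were shown by no label to pair samples. Signals near the floor limit Pld1 AF017251_at, Pde4b J04563_at and Prkcz, and 3 arrays a group limit every value.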
